A study of Neurospora crassa with 6 samples.

Results

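The genes described here had far more transcript at the protoperithecial stage (S) than in vegetative hyphae (A) of wild-type *Neurospora crassa*, and stood at nearly the wild-type level at that stage when either of 2 MAP kinases was missing. They are the 124 of 9872 table entries with more than 20 RPKM in WT-S, at least 8 times the RPKM of WT-A, and a ratio of 0.67 to 1.5 to WT-S in both Δ*mak-1*-S and Δ*mak-2*-S. RPKM is a read count divided by gene length and by library size. The level and the fold alone were met by 537 entries, 5.44% of the table, so 413 entries that met the same limits lay outside the band in at least 1 mutant. These had a median WT-S/WT-A ratio of 18.5, against 12.4 for the 124. The genes were chosen by measured RPKM values, those of Δ*mak-1*-S, Δ*mak-2*-S, WT-S and WT-A, which are given below as a description. Only Δ*mak-1*-A and Δ*mak-2*-A played no part in choosing the genes.

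The samples were a Δ*mak-1* deletion strain, which lacks the last kinase of the cell wall integrity pathway, a Δ*mak-2* deletion strain, which lacks that of the pheromone response pathway, and the wild type. Both deletion strains are listed by the authors as mating type a. The authors list wild types of mating types a and A and do not state which was sequenced. Each strain was taken after 3.5 days at 25 °C in the dark on cellophane over synthetic crossing medium with 0.1% sucrose (S), and as shaken cultures in liquid glucose medium (Vogel's) grown for 22 h at 28 °C (A). Neither mutant forms a normal protoperithecium, so that in the mutants S stands for the culture condition. RNA of 3 repeats was mixed into 1 library per strain and stage, which leaves no replicate: no test was possible, and the intervals below are exact 95% binomial intervals of a ratio of reads that cover counting error only. Medium, sugar, surface, temperature and time changed together with the stage and cannot be told apart. In bulk RNA, fewer cells of a type and less RNA per cell cannot be told apart either.

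When glucose is plentiful a saprophytic fungus such as *N. crassa* keeps the genes for plant cell wall breakdown nearly silent, and it secretes cellulases, xylanases and copper-dependent polysaccharide monooxygenases once simple sugars run short or cell wall fragments are sensed. Ribosome production takes place in the nucleolus, where RNA polymerase I makes the ribosomal RNA precursor and large sets of assembly factors cut, modify and fold it. Genes of these assembly factors tend to move together with the growth state of the cell. Both kinds of gene were among the 124.

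The mapped libraries held 2602076 to 3668046 reads. The deleted genes gave the labels a check: *mak-2* had 0 RPKM in both Δ*mak-2* libraries, and *mak-1* had 6.08 RPKM in Δ*mak-1*-S and 6.39 RPKM in Δ*mak-1*-A, against 148 RPKM in WT-S and 42.1 RPKM in WT-A. The authors print 0 RPKM for *mak-1* in both Δ*mak-1* libraries. The source of the 52 reads in Δ*mak-1*-S and 50 reads in Δ*mak-1*-A was not tested. The cultures differed strongly in other genes at the same stage. The summed level of 8 protoperithecial marker genes was 124 RPKM in Δ*mak-1*-S and 76.4 RPKM in Δ*mak-2*-S, against 3857 RPKM in WT-S, 6 of the 8 being lower in both mutants. *poi-2* had 3.84 and 2.51 RPKM in the mutants, against 2072 RPKM in WT-S. The pheromone receptor gene *pre-2* was higher in both mutants, with 15.2 and 9.24 RPKM against 2.67 RPKM in WT-S. The other receptor gene, *pre-1*, had only 6, 5 and 4 reads in Δ*mak-1*-S, Δ*mak-2*-S and WT-S, a difference within counting error. The summed level of 6 conidial and aerial hypha markers was 22612 RPKM in Δ*mak-1*-S and 25508 RPKM in Δ*mak-2*-S, against 1038 RPKM in WT-S, and all 6 were more than 2 times higher in both mutants. In the vegetative libraries the same 6 genes summed to 4209 RPKM in Δ*mak-1*-A and 50999.9 RPKM in Δ*mak-2*-A, against 6833 RPKM in WT-A. The Δ*mak-2*-A sum was mostly *eas*, the hydrophobin gene, with 47036 RPKM against 703 RPKM in WT-A, and 5 of the 6 genes were lower than WT-A in Δ*mak-1*-A and 4 in Δ*mak-2*-A. None of these 14 genes belongs to the 124, and the part of these differences in the results below was not tested.

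The 124 genes took 2.76% of the mapped reads in Δ*mak-1*-S, 3.46% in Δ*mak-2*-S and 3.17% in WT-S. In the vegetative libraries they took 0.236% in Δ*mak-1*-A, 0.167% in Δ*mak-2*-A and 0.107% in WT-A. Their median level was 49.3 RPKM in Δ*mak-1*-S, 48.7 RPKM in Δ*mak-2*-S and 50.2 RPKM in WT-S, and 7.96 RPKM in Δ*mak-1*-A, 4.65 RPKM in Δ*mak-2*-A and 3.71 RPKM in WT-A. The S levels are alike because the rule asked for it, and WT-A is low for the same reason. Between the vegetative libraries that the rule did not use, Δ*mak-1*-A was above Δ*mak-2*-A for 89 of the 124 genes (71.8%), where 64.9% of the 4685 entries above 20 RPKM in WT-S were. Against WT-A, which the rule held low, Δ*mak-1*-A was higher for 93 genes (75%, against 69.5% of those entries) and Δ*mak-2*-A for 82 (66.1%, against 57.2%). These shares lie near the background.

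**Figure D1:**
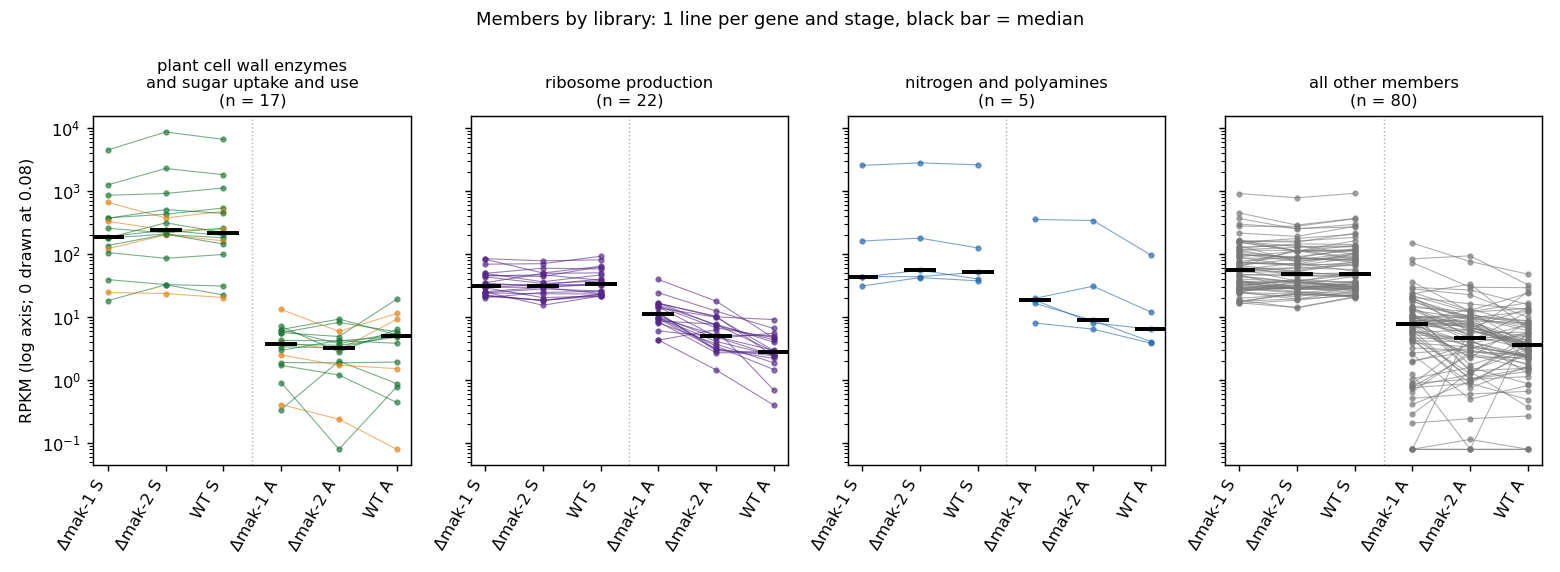
RPKM (log axis) of the 124 genes in the 6 libraries, with 1 line per gene and stage and black bars for the medians; the mutants stand left of WT within each stage. Ribosome production genes run downward across the 3 vegetative libraries, with 21 of 22 highest in Δ*mak-1*-A (55.3% of entries above 20 RPKM in WT-S are), whereas the plant cell wall enzymes stay below 20 RPKM in all 3.

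The edges of the rule were not gaps in the data. Just inside the level limit lay NCU01494 with 20.3 RPKM in WT-S, and just outside it NCU07942 with 19.7. The WT-S/WT-A ratio was 8.02 for *spe-2* inside and 7.96 for NCU08518 outside. For Δ*mak-1*-S/WT-S, *cbh-1* at 0.678 and NCU05414 at 1.47 were the innermost at the lower and upper limit, and NCU04308 at 0.664 and *gh31-3* at 1.51 lay just outside. For Δ*mak-2*-S/WT-S the corresponding values were 0.672 for NCU07948 and 1.45 for *gh35-2* inside, and 0.6697 for NCU03518 and 1.57 for NCU08356 outside. A pair of genes of the fixed lists missed by little: *gh11-2*, a xylanase gene, at 0.660, and *cdt-2*, a cellodextrin transporter gene, at 1.53, both in Δ*mak-1*-S. Both counting intervals lay wholly inside the band for 48 genes. In WT-A 48 genes had under 10 reads and 4 had none, and the counting interval of WT-S/WT-A lay above 8 for 52.

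Plant cell wall enzymes, 13 genes, had a summed level of 8397 RPKM in Δ*mak-1*-S, 14034 RPKM in Δ*mak-2*-S and 11613 RPKM in WT-S. Of 61 loci in 4 fixed lists (cellulose, polysaccharide monooxygenases, xylan, and β-glucosidases with sugar transporters), 41 met the level and fold in wild type and 10 were among the 124. Of the other 31, 16 lay below the band in Δ*mak-1*-S and 9 above it, and 13 lay below it in Δ*mak-2*-S and 8 above it. Of the loci that met the level and fold, the band kept 4 of 8 in the cellulose list, 2 of 9 monooxygenase loci, 3 of 14 xylan loci and 1 of 10 β-glucosidase and transporter loci. Over all 537 entries that met the level and fold, the band kept 23.1%. The 10 of 41 loci lie near that share, and the single lists are short. The level and fold were met by 1 of 9 regulators and 0 of 5 glyoxylate and gluconeogenesis loci, and no locus of either list was among the 124. Over all 9872 entries the share that met both limits was 5.44%. Against that share the counts in these short lists are not read as a lack of induction.

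*cbh-1* (NCU07340), which encodes a cellobiohydrolase cutting cellobiose from cellulose chain ends, had 4454 RPKM in Δ*mak-1*-S, 8597 RPKM in Δ*mak-2*-S and 6569 RPKM in WT-S, against 6.27 RPKM in Δ*mak-1*-A, 3.79 RPKM in Δ*mak-2*-A and 5.64 RPKM in WT-A. Its S/A ratio was 710 (505 to 1031) in Δ*mak-1*, 2270 (1418 to 3897) in Δ*mak-2* and 1164 (775 to 1836) in wild type. It was near silent in all 3 vegetative libraries and took 0.697% of the mapped reads in Δ*mak-1*-S, 1.35% in Δ*mak-2*-S and 1.03% in WT-S. The endoglucanase gene *gh7-1* (NCU05057) had 853, 910 and 1114 RPKM in Δ*mak-1*-S, Δ*mak-2*-S and WT-S, and 5.65, 8.21 and 5.84 RPKM in the A libraries of the same strains. The other cellulase genes kept were lower at S. *gh45-1* (NCU05121) had 180, 312 and 218 RPKM in Δ*mak-1*-S, Δ*mak-2*-S and WT-S, with 3.56 to 4.79 RPKM in the A libraries. *gh7-2* (NCU04854) had 136, 204 and 181 RPKM in the same order, with 4.20 to 4.92 RPKM in the A libraries. Reads of *gh7-1*, *gh7-2* and *cbh-1*, which are related in sequence, could in part have been assigned to one another.

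Lytic polysaccharide monooxygenases open crystalline cellulose by oxidation. *gh61-1* (NCU02240) had 1248 RPKM in Δ*mak-1*-S, 2268 RPKM in Δ*mak-2*-S and 1806 RPKM in WT-S, with 3.38, 3.24 and 5.16 RPKM in the A libraries of Δ*mak-1*, Δ*mak-2* and wild type. *gh61-7* (NCU00836) had 374, 427 and 536 RPKM at S and only 3, 0 and 2 reads at A in the same order of strains. Against a floor of 3 reads it was at least 400-fold higher in Δ*mak-2*-S than in Δ*mak-2*-A. The copper transporter gene *tcu-3* (NCU07428) is also one of the 124. It had 276 RPKM in Δ*mak-1*-S, 275 RPKM in Δ*mak-2*-S and 361 RPKM in WT-S, and 21.9, 11.9 and 13.8 RPKM at A.

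Of the 13 enzyme genes, 3 came from the xylan and side chain list. NCU05159 had 368, 505 and 440 RPKM in Δ*mak-1*-S, Δ*mak-2*-S and WT-S, and NCU08785 had 255, 216 and 257 RPKM. NCU08785 had 1, 5 and 2 reads in the A libraries of Δ*mak-1*, Δ*mak-2* and wild type, so its ratios of 748 (134 to 29582), 108 (46.2 to 335) and 292 (80.5 to 2413) are poorly determined. NCU09652 had 178, 207 and 143 RPKM at S and 7.12, 2.78 and 6.36 RPKM at A. Of the 4 enzyme genes outside the lists, NCU06861 differed at A: it had 5.65 RPKM in Δ*mak-1*-A and 4.91 RPKM in Δ*mak-2*-A, against 19.2 RPKM in WT-A, a ratio of 0.295 (0.182 to 0.465) and 0.256 (0.147 to 0.425). The lowest at S was *gh35-2* (NCU04623), named for a glycoside hydrolase family, with 18.2, 32.5 and 22.4 RPKM.

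Sugar uptake and use added 4 genes. The transporter gene NCU05853 had 656 RPKM in Δ*mak-1*-S, 374 RPKM in Δ*mak-2*-S and 473 RPKM in WT-S, and 4.03, 3.004 and 9.22 RPKM in the A libraries of the same strains. NCU02188, described in the table as a general substrate transporter, had 329 (Δ*mak-1*), 240 (Δ*mak-2*) and 246 RPKM (wild type) at S and 2, 1 and 0 reads at A, at least 311-fold higher in WT-S than in WT-A against 3 reads. The xylose reductase gene *xr* (NCU08384), the first step of xylose use, had 121, 201 and 162 RPKM at S and 13.2, 5.90 and 11.4 RPKM at A. NCU01494, annotated to sugar transport, was the lowest with 24.5, 23.6 and 20.3 RPKM at S.

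The S/A ratio within each strain shows how these genes behaved against the mutants' own vegetative hyphae. Counted as at least 8 times A with more than 20 RPKM at S, 55 of the 124 genes passed in Δ*mak-1*, where 6.98% of the 4685 entries above 20 RPKM in WT-S did, and 71 passed in Δ*mak-2*, where 7.66% did. Of the 413 entries outside the band, 189 (45.8%) passed in Δ*mak-1* and 177 (42.9%) in Δ*mak-2*, against 44.4% and 57.3% of the 124. In both mutants 49 genes passed, and 120 were more than 2 times higher at S in both. For both mutants at once no share over other entries was counted, so these joint counts have no background. Taken by strain, 96.8% of the 124 were more than 2 times higher at S in Δ*mak-1* and 99.2% in Δ*mak-2*. These shares were 89.2% and 89.1% for entries outside the band. For entries above 20 RPKM in WT-S they were 32.1% and 41.3%. The S level like wild type was set by the rule and says nothing on whether the induction needs the kinases. The mutant S level entered the rule and only the A level is free in this ratio. Part of the drop below 8 is set by the choice of a low WT-A, and the 413 entries share that choice. Unlike the 124, the 413 were chosen for an S level outside the band in at least 1 mutant. Their median ratio to WT-S was 0.532 in Δ*mak-1*-S and 0.410 in Δ*mak-2*-S, which lowers their S/A ratios. Their shares are therefore not a like comparison for the 124.

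**Figure D2:**
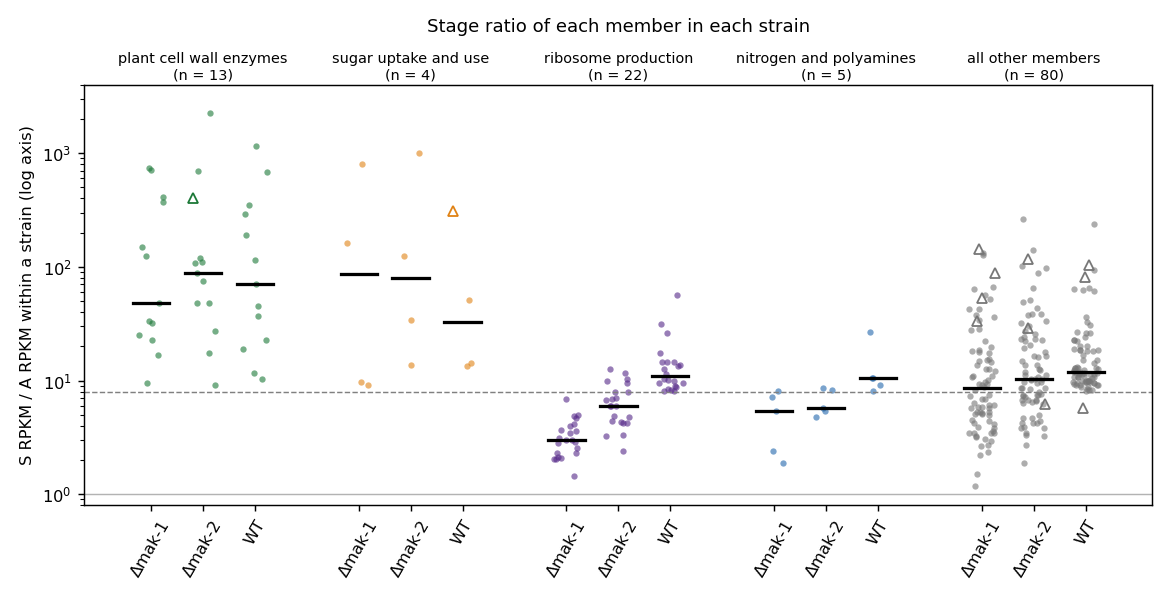
S RPKM over A RPKM within Δ*mak-1*, Δ*mak-2* and WT (log axis) for each gene; bars are medians, the dashed line marks 8, and open triangles are lower bounds against 3 reads where A had no read. The 13 plant cell wall enzymes lie above 8 in all 3 strains, and the 22 ribosome production genes lie below 8 in Δ*mak-1*.

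The role groups parted along this ratio. The 13 enzyme genes had median S/A ratios of 48.4 in Δ*mak-1*, 87.6 in Δ*mak-2* and 70.2 in wild type, and 12 passed in Δ*mak-1* and 13 in Δ*mak-2*. The exception was *gh35-2*, with a ratio of 9.59 but only 18.2 RPKM in Δ*mak-1*-S. The 22 ribosome production genes had median ratios of 3.01 in Δ*mak-1*, 6.01 in Δ*mak-2* and 10.9 in wild type, and 0 passed in Δ*mak-1* and 4 in Δ*mak-2*. Their wild-type ratios ran from 8.11 to 56.8.

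The ribosome group was put together from annotation after the values were known. The deposited annotation supplied 8 of the 22. The study's own gene lists, which were drawn from genes of these samples and are no independent evidence of direction, supplied the other 14. NCU03396, annotated to ribosomal RNA processing, had 84.4 RPKM in Δ*mak-1*-S, 77.7 RPKM in Δ*mak-2*-S and 80.7 RPKM in WT-S, and 39.4 RPKM in Δ*mak-1*-A, 17.9 RPKM in Δ*mak-2*-A and 4.62 RPKM in WT-A. The 3 strains were level at S and fell apart at A, by 8.52-fold (5.74 to 13.2) between Δ*mak-1*-A and WT-A and by 3.87-fold (2.52 to 6.12) between Δ*mak-2*-A and WT-A. NCU01290 is the CBF5 gene, whose product converts uridines of ribosomal RNA to pseudouridine. It had 32.5, 32.7 and 39.9 RPKM in Δ*mak-1*-S, Δ*mak-2*-S and WT-S and 14.0, 9.91 and 2.93 RPKM at A. NCU08663, annotated to large subunit assembly, differed least, with 16.6, 10.1 and 9.12 RPKM at A. NCU02477, of the large subunit precursor, had 16.4, 10.3 and 2.37 RPKM at A.

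In the group, 3 genes encode RNA polymerase subunits. NCU02533, the 40 kDa subunit that polymerases I and III share, had 44.8, 46.7 and 38.4 RPKM in Δ*mak-1*-S, Δ*mak-2*-S and WT-S and 14.9, 6.75 and 4.73 RPKM at A. NCU06485, annotated to polymerase I, had 9.77, 3.46 and 1.47 RPKM at A in the same order of strains, and NCU07656, annotated to polymerase III, had 6.02, 4.83 and 2.46 RPKM. All 3 had the order Δ*mak-1*-A, Δ*mak-2*-A, WT-A, but the rule held WT-A low and the genes were chosen after their values were seen. For NCU02533 the ratio of Δ*mak-2*-A to WT-A was 1.43 (0.698 to 3.01), within counting error. NCU07041, the assembly gene *mis3*, had the largest ratio of Δ*mak-1*-A to WT-A in the group at 10.8, but its interval of 1.65 to 459 rests on 1 read in WT-A.

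Over the 22 genes Δ*mak-1*-A was above WT-A for 22 and Δ*mak-2*-A for 20, with median ratios of 4.10 and 1.79. Over the 4685 entries above 20 RPKM in WT-S, 69.5% and 57.2% were above WT-A. The counting interval lay above 1 for 20 genes in Δ*mak-1*, against 47.9% of those entries, and for 6 in Δ*mak-2*, against 28.5%. Those entries had a median of 30.1 RPKM in WT-A, against 2.80 RPKM in the group, and more reads narrow an interval. The interval shares are therefore not a like background. Among the 413 entries outside the band, which the rule also held low in WT-A, the shares were 26.4% and 7.99%. Those entries were chosen for an S level off wild type in at least 1 mutant, so they are not a like comparison either. The 13 enzyme genes had median ratios of 0.968 and 0.854, with Δ*mak-1*-A above WT-A for 5 and Δ*mak-2*-A for 5. Both vegetative comparisons share WT-A, which the rule required to be low, and that alone favours ratios above 1.

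The KEGG term for ribosome biogenesis in eukaryotes, the only deposited term held by at least 5 of the 124, was looked at because members hold it and with the values above known. It is held by 41 entries, of which 5 (NCU01290, NCU03066, NCU03396, NCU08421 and NCU08663) are among the 124 and 0 among the 413 outside the band. Together the 124 and the 413 are 5.44% of the 9872 table entries. Few of 41 entries would fall in either at that share, so the 0 is not read as a split. The other 36 were not required to be low in WT-A. Of those, 31 were higher in Δ*mak-1*-A than in WT-A, with a median ratio of 1.91, and 24 were higher in Δ*mak-2*-A, with a median ratio of 1.15. Over the 4685 entries above 20 RPKM in WT-S the medians were 1.28 and 1.07, with 69.5% and 57.2% of the entries above WT-A, so the count in Δ*mak-2*-A is near the background. The 36 were not held to that level, and NCU05289, for example, had only 1.53 RPKM in WT-S. The S/A medians of the 36 were 1.98 in Δ*mak-1*, 3.16 in Δ*mak-2* and 3.83 in wild type.

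**Figure D3:**
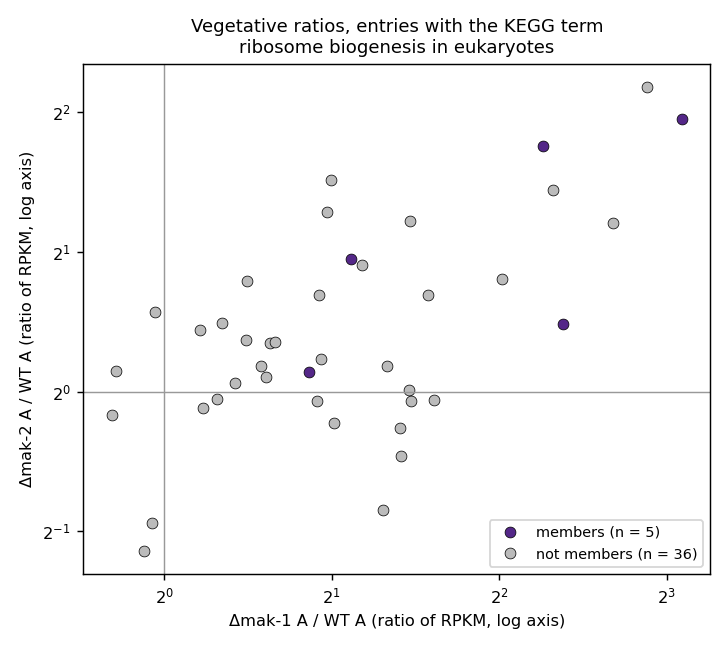
Ratio of Δ*mak-1*-A to WT-A (horizontal) and of Δ*mak-2*-A to WT-A (vertical), both on log axes, for the 41 entries with the KEGG ribosome biogenesis term; both axes share WT-A. Of the 36 entries outside the set (grey), 31 lie right of 1, and the 5 members (purple) lie right of 1 too.

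Counted over the whole set, Δ*mak-1*-A was more than 2 times WT-A for 61 of the 124 genes, where 16.7% of the 4685 entries were, and Δ*mak-2*-A for 26, where 6.13% were. The rule also held WT-A low in the 413 entries outside the band. Among these the counts were 95 (23.0%) and 39 (9.44%), against 49.2% and 21.0% of the 124. Those 413 were chosen for an S level off wild type in at least 1 mutant. The 4685 entries had a median of 30.1 RPKM in WT-A, against 3.71 RPKM for the 124. Neither is therefore a like background, and the rise is not read as particular to the 124. The libraries were not centred on one another: the median log2 ratio was 0.41 for Δ*mak-1*-A over WT-A in 5314 entries and 0.11 for Δ*mak-2*-A over WT-A in 4910. The stage shifts were 0.50 in Δ*mak-1*, 0.74 in Δ*mak-2* and 0.89 in wild type, all on the log2 scale. With 3 other scalings the median of the ribosome group for Δ*mak-1*-A over WT-A was 2.76 to 3.13, and that of the enzyme group 0.651 to 0.738. For Δ*mak-2*-A over WT-A the ribosome median was 1.64 to 2.12, and the enzyme median of 0.854 changed side to 1.01 with β-tubulin scaling.

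The nitrogen and polyamine group holds 5 genes. *am* (NCU01195) encodes the NADP-specific glutamate dehydrogenase, which assimilates ammonium into glutamate, and only *cbh-1* had a higher level in WT-S among the 124. It had 2537 RPKM in Δ*mak-1*-S, 2782 RPKM in Δ*mak-2*-S and 2590 RPKM in WT-S, and 352 RPKM in Δ*mak-1*-A, 339 RPKM in Δ*mak-2*-A and 96.1 RPKM in WT-A. The 2 mutants were alike at A and stood 3.67-fold (3.29 to 4.10) and 3.53-fold (3.16 to 3.96) above wild type. The S/A ratio was therefore 7.20 (6.86 to 7.56) in Δ*mak-1* and 8.20 (7.78 to 8.65) in Δ*mak-2*, against 27.0 (24.4 to 29.9) in wild type. *am* had 1860, 1529 and 393 reads at A, the best determined vegetative values of the set.

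*nit-3* (NCU05298), the nitrate reductase gene, had 160, 178 and 125 RPKM in Δ*mak-1*-S, Δ*mak-2*-S and WT-S and 19.9, 30.8 and 11.96 RPKM at A, highest in Δ*mak-2*-A. *spe-2* (NCU01083), which encodes the S-adenosylmethionine decarboxylase of spermidine synthesis, had 18.4 RPKM in Δ*mak-1*-A and 8.05 RPKM in Δ*mak-2*-A, against 6.43 RPKM in WT-A. The amino acid permease genes NCU05830 and NCU10262 had 16.4 and 7.997 RPKM in Δ*mak-1*-A and 8.81 and 6.43 RPKM in Δ*mak-2*-A, against 4.08 and 3.85 RPKM in WT-A. All 5 genes were higher in both mutants than in wild type at A, and the counting interval lay above 1 for 5 in Δ*mak-1* and 3 in Δ*mak-2*. Over the 4685 entries above 20 RPKM in WT-S, 69.5% and 57.2% were above WT-A. The interval lay above 1 for 47.9% and 28.5% of them. The rule held WT-A low, which favours ratios above 1, and a group of 5 genes is small.

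**Figure D4:**
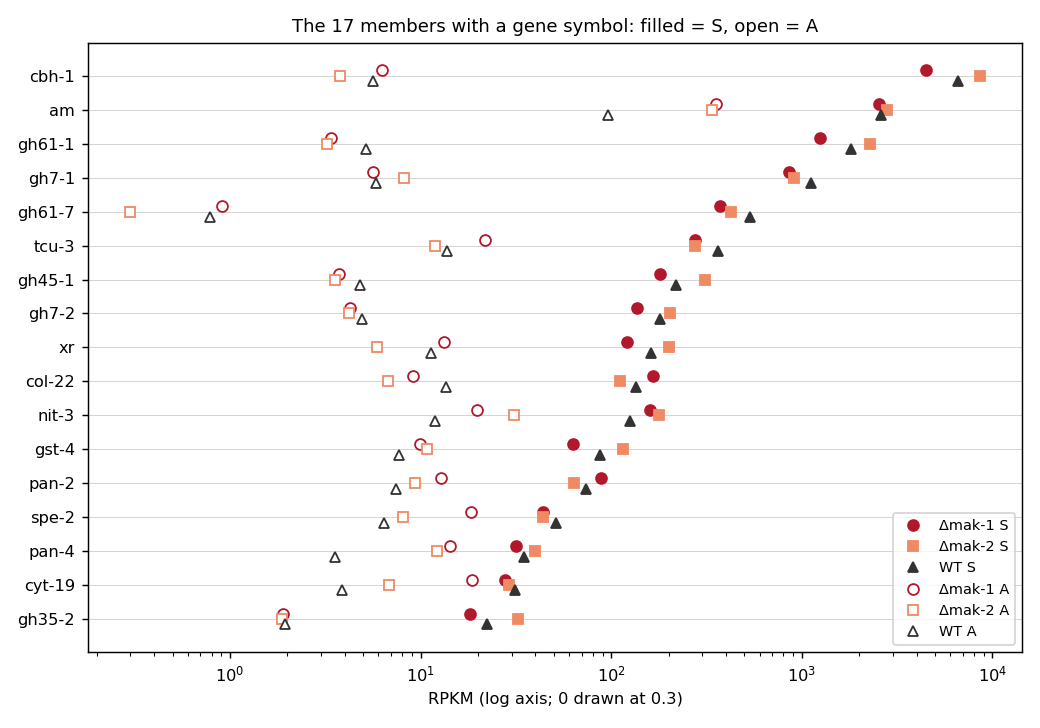
RPKM (log axis) of the 17 genes with a RefSeq symbol, filled at S and open at A, for Δ*mak-1* (circles), Δ*mak-2* (squares) and WT (triangles). The open symbols of *am*, *pan-4* and *cyt-19* show WT-A below both mutants, whereas those of *gh45-1*, *gh7-2* and *gh35-2* lie close together.

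Among single genes, *pan-4* and *pan-2*, which encode enzymes of pantothenate synthesis, the route to coenzyme A, were both in the set. *pan-4* (NCU08661) had 31.6, 39.6 and 34.9 RPKM in Δ*mak-1*-S, Δ*mak-2*-S and WT-S and 14.3, 12.2 and 3.54 RPKM at A. *pan-2* (NCU10048) had 88.8, 63.8 and 73.3 RPKM at S and 12.8, 9.38 and 7.44 RPKM at A. *cyt-19* (NCU07670), an RNA chaperone gene for splicing of mitochondrial introns, had 27.7, 29.2 and 31.2 RPKM at S and 18.5 RPKM in Δ*mak-1*-A and 6.86 RPKM in Δ*mak-2*-A, against 3.88 RPKM in WT-A. Its S/A ratio was 1.49 (1.18 to 1.90) in Δ*mak-1*. NCU04405, the *mago nashi* gene of the exon junction complex, had 299, 254 and 267 RPKM at S and 83.5, 93.5 and 32.4 RPKM at A, among the 5 highest levels of the 124 in each mutant's A library.

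Among the 70 genes given no role here, Δ*mak-1*-A was above WT-A for 51 and the highest of the 3 for 41. Over the 4685 entries above 20 RPKM in WT-S these shares were 69.5% and 55.3%, so both counts lie near the background. WT-A, which the rule held low, was the lowest for 36. Some genes, chosen here for their symbol, their WT-S level or after their values were seen, had another order. *col-22* (NCU04390), annotated to hyphal growth, had 166, 111 and 135 RPKM in Δ*mak-1*-S, Δ*mak-2*-S and WT-S and 9.08 and 6.77 RPKM in Δ*mak-1*-A and Δ*mak-2*-A, against 13.6 RPKM in WT-A. NCU06607 had 366, 249 and 294 RPKM at S and 21.0 and 5.68 RPKM in Δ*mak-1*-A and Δ*mak-2*-A, against 25.3 RPKM in WT-A, a ratio of 0.225 (0.143 to 0.343) for Δ*mak-2*. NCU04904, annotated to phosphate starvation, had 10.7 RPKM in Δ*mak-1*-A and 1.75 RPKM in Δ*mak-2*-A, against 3.30 RPKM in WT-A. *gst-4* (NCU10521), named as a glutathione transferase, had 9.90 and 10.8 RPKM in the mutants and 7.67 RPKM in WT-A, a difference within counting error.

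The deposited table gave 95 of the 124 genes (76.6%, against 75.4% of all entries) neither a GO nor a KEGG term. Their median S/A ratios were 9.10 in Δ*mak-1*, 10.3 in Δ*mak-2* and 12.6 in wild type. NCU08193, the highest in WT-S among the genes given no role here, had 909, 777 and 916 RPKM in Δ*mak-1*-S, Δ*mak-2*-S and WT-S and 149, 75.8 and 47.9 RPKM at A. NCU04907 had 448, 287 and 366 RPKM at S and 72.9, 29.6 and 29.2 RPKM at A. NCU08977 had 215, 190 and 275 RPKM at S and 24.5, 12.7 and 23.9 RPKM at A, so Δ*mak-2*-A was lowest there. The gene with the smallest stage ratio in both mutants was NCU06489, with 17.8, 19.4 and 25.8 RPKM at S and 15.2 RPKM in Δ*mak-1*-A and 10.3 RPKM in Δ*mak-2*-A, against 2.16 RPKM in WT-A. Its S/A ratio was 1.17 (0.895 to 1.54) in Δ*mak-1* and 1.88 (1.37 to 2.60) in Δ*mak-2*, against 11.97 (6.52 to 24.4) in wild type.

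A few genes given no role here were off or nearly off in every vegetative library. NCU04400 had 71.6, 68.9 and 66.7 RPKM in Δ*mak-1*-S, Δ*mak-2*-S and WT-S and no read in any A library. Against a floor of 3 reads per library it was at least 143-fold higher in Δ*mak-1*-S, 118-fold in Δ*mak-2*-S and 103-fold in WT-S. NCU07767 had 25.6, 30.1 and 30.7 RPKM at S and 0, 1 and 0 reads at A. NCU00449 had 95.7, 90.6 and 116 RPKM at S and 2, 2 and 1 reads at A, and NCU07224 had 27.9, 34.7 and 25.5 RPKM at S and 1 read in each A library.

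Few of the 124 genes were neighbours in the RefSeq gene order of assembly NC12. Of 121 genes placed, 6 (4.96%) lay directly beside another, in 3 runs of 2, whereas 80 of the 404 placed entries outside the band (19.8%) lay in runs of up to 4. The lists differ in size, and no test was made. The runs were NCU08193 with NCU08194, NCU05830 with NCU05831, and NCU03018 with NCU03019. NCU08194 had 161, 160 and 183 RPKM at S and 28.0, 22.5 and 9.89 RPKM at A, in the same falling order as NCU08193. NCU05831 had 7.96, 7.15 and 2.74 RPKM at A, like the permease gene NCU05830 lowest in wild type. NCU03018, of the small subunit processome, had 9.70, 4.10 and 2.46 RPKM at A, and NCU03019 had 4.51, 0.755 and 1.66 RPKM from only 7, 1 and 2 reads. Overlap or read-through between neighbours was not tested. Recovered gene lengths ran from 234 to 3948 bases with a median of 1332, against 1365 over all entries.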

How the data were processed

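RNA of 3 repeats per strain and stage was mixed by the authors, sequenced as single-end reads on 1 HiSeq library per condition and called with CASAVA 1.8. Which aligner, counter and genome build were used is not stated in the sources read here. RPKM per gene, as the authors deposited it, is the only unit used; the ratio columns of the same table, which hold the authors' own comparisons of stage and strain, were not used. Whole reads were recovered from the RPKM of 8913 of 8913 entries above 0 in at least 2 libraries (largest relative deviation 1.3e-08), which gave mapped reads, lengths and exact intervals. Where all reads of an entry share a divisor, the recovered reads and length can be a fraction of the true ones, which widens its intervals. The recovery was tested on simulated data. No count test was run, since each condition is 1 library; no p-value or SD can be given.

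Members and lists were chosen with earlier results of these data known. Genes named are the 15 highest in WT-S, the 10 largest wild-type ratios with at least 50 WT-S reads, those with a RefSeq symbol or in a fixed list, the 5 highest in each mutant's A library, the 5 lowest stage ratios per mutant, neighbours and genes at the limits; the ribosome examples, NCU04904, NCU06861, NCU07767 and NCU10262 were chosen after their values were seen. A ratio against 0 reads uses 3 reads as floor. RefSeq (NC12) supplied symbols and gene order for 119 members by locus tag and 2 by older tag; 3 were not matched. Alternatives were 3 scalings, other limits of the rule, 1 RPKM added and NCU loci only. Sequences, promoters and proteins were not analysed here. Computations used Python, numpy and scipy.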

Additional observations from a re-analysis of the deposited data

How the results depend on the processing

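With 1 library per condition no replicate could be left out. No paired analysis was possible because each group holds 1 library. The promoter and protein steps were not run for want of sequences. Of 52 alternative counts for the 4 main results, 26 stayed within 1.5 times. The set of 124 genes became 53 with the median of ratios, 56 with the upper quartile and 72 with β-tubulin scaling (48, 52 and 67 of them shared with the 124), 358 and 46 with a fold of at least 4 and 16, 63 above 50 RPKM, 225 and 56 with a wider (0.5 to 2) and a narrower band (from 0.8), and 48 with both whole counting intervals inside the band. The 55 genes past 8-fold in Δ*mak-1* became 31 and 33 with the first and second scaling, 31 with a fold of at least 16, 120 and 21 with the wider and narrower band, and 23 with whole intervals. The 71 in Δ*mak-2* became 33, 35 and 37 with the 3 scalings, 36 with a fold of at least 16, 46 above 50 RPKM, 143 and 28 with the bands, and 32 with whole intervals. The 10 loci from plant cell wall lists became 21, 2 and 5 with the wider band, the narrower band and whole intervals. The other limits of the rule let fewer or more genes through by construction; for the scalings, which change both the S/A ratios and the mutant band, the cause was not tested. Added after seeing the data, the scalings brought the Δ*mak-2* S/A median to 50.4 to 55.4 for enzymes and 3.46 to 3.80 for ribosome genes. With the median of ratios the Δ*mak-1* S/A ratio of 2 genes, NCU01367 and NCU06489, fell below 1, and with the upper quartile that of NCU06489. Allowing 1 gene between neighbours gave 8 genes in runs in place of 6. Under about 10 reads at A, a ratio is known only within several-fold.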
